A study of Mus musculus with 5 samples.

Results

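Lamina propria fibroblasts are the collagen-producing cells that fill the connective tissue directly beneath the intestinal epithelium. Here they were 187 of the 12255 cell barcodes kept from 16535 deposited in 5 single-cell libraries of mouse intestine, 1 library from each segment. The rule started from barcodes that held 300 genes or more and no more than 20% of their unique molecular identifiers (UMIs, each 1 captured transcript) from mitochondrial genes. It asked for at least 10 UMIs of Col1a1, Col1a2, Col3a1 and Dcn together, at most 1 of Epcam and 0 of Ptprc. It then took out other stromal cells. At most 3 UMIs of Sox6, F3, Bmp5 and Bmp7 together were allowed, at most 1 of Ackr4, Pi16 and Grem1, and at most 4 of Myh11, Des and Actg2. The cells were thus chosen by the levels of these 16 transcripts, so their levels are given as a description.

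Messenger RNA was counted by droplet sequencing in cells of 5 segments, and the study as a whole concerns stromal cells with Gnai1 and secretory epithelial cells. The segments were duodenum, jejunum, ileum, colon and rectum, and the labels give the segment and broad cell classes, without strain, age, sex, treatment or number of animals. In every library, cells that excluded propidium iodide, which stains dead cells, were sorted before capture. The libraries yielded 14 lamina propria fibroblasts in duodenum, 4 in jejunum, 10 in ileum, 70 in colon and 89 in rectum. Colon and rectum therefore held 159 of the 187, and the comparison below is between these. The 28 small intestinal cells are given as values. With 1 library a segment there is no replicate and no test between segments, and the intervals printed are exact 95% intervals that cover counting error only. Segment, animal and library cannot be told apart.

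Lamina propria fibroblasts lay down the collagens, proteoglycans and elastic fibres of the mucosa and send signals to epithelium, vessels and immune cells. Adamdec1 encodes a secreted metalloprotease-like protein that is a known mark of mucosal fibroblasts, and Sfrp1 a secreted inhibitor of WNT signalling. Ccl11, also called eotaxin, draws eosinophils, Igfbp3 binds insulin-like growth factors, and Col3a1 is a chain of type III collagen. Other intestinal fibroblasts include PDGFRA-high cells pressed against the epithelium, which make BMP ligands, and deeper Pi16, Ackr4 or Grem1 cells, called trophocytes or adventitial fibroblasts.

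In colon the fibroblasts were 3.18% of the barcodes kept (Clopper-Pearson interval 2.49% to 4.005%), against 3.79% in rectum (3.05% to 4.64%). Among stromal barcodes the share was 40.2% in colon (32.9% to 47.9%), against 31.0% in rectum (25.7% to 36.7%). For both shares the segments had overlapping intervals. Their median depth was 6546 UMIs in colon and 8589 in rectum, and their median mitochondrial share 3.95% in colon and 3.88% in rectum. Summed over cells there were 492295 UMIs in colon and 722756 in rectum, so that 1 UMI was worth 2.03 CPM in colon and 1.38 CPM in rectum, CPM being the UMIs of a gene scaled to a total of 1000000. Of 16505 distinct barcode sequences, 30 occurred in more than 1 library, and 1 of these was a colonic fibroblast.

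Some cells stood apart. A group of 5 colonic and 4 rectal fibroblasts carried over 5% of their UMIs in immunoglobulin genes, the antibody genes of plasma cells. The lowest of these held 7.03% in colon and 23.5% in rectum, whereas the highest of the other cells held 0.486% in colon and 1.02% in rectum. These cells also had 19 to 118 collagen and Dcn UMIs in colon and 20 to 61 in rectum. A single colonic barcode with 53642 UMIs, the deepest of all, was 57.6% immunoglobulin and held 92.9% of the colonic Igkc UMIs of the class. Immunoglobulin genes made up 6.76% of the fibroblasts' UMIs in colon and 1.07% in rectum. The 7 plasma cell genes, all detected in both segments, summed to 67250 CPM in colon and 10566 in rectum, and their part in the results was not tested beyond the values without these cells. Igkc had 46379 CPM in colon and 920 in rectum, and its log2 difference was -1.93 with the cells left out. Removal of the highest Scrublet doublet scores took out 1 colonic and 1 rectal fibroblast, of which the rectal one was among the immunoglobulin-rich cells. In rectum, 1 cell of 12165 UMIs held 83.5% of the Cxcl1 UMIs, 75% of Atf3 and 56.7% of Hspb1, and these genes are given with and without it.

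The duodenal stroma stood apart from that of jejunum and ileum. Hoxa10, Hoxa11 and Hoxa13 are posterior Hox genes, which mark the hind part of the body axis. In the duodenal library 6 of the 14 lamina propria fibroblasts carried UMIs of these genes. Among its 47 stromal barcodes Hoxa10 occurred in 14 and Hoxa13 in 4, whereas the 37 jejunal and ileal stromal barcodes together had 0 UMIs of both. Neither gene had a UMI in the 1301 epithelial or 1925 immune barcodes of the duodenal library. For the genes described at most length, duodenal values are therefore also given for the 8 fibroblasts without these UMIs. Where the 6 cells come from was not tested.

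The label fits the markers in part. Adamdec1 was carried by 52 of 70 colonic cells and 78 of 89 rectal cells. Sfrp1 was carried by 61 and 82, Ccl11 by 56 and 57, and Igfbp3 by 52 and 79. Every colonic and rectal cell had Col3a1, but it helped choose the cells and so says little about the label. Adamdec1 had a UMI in 74.3% of colonic and 87.6% of rectal fibroblasts. Of epithelial barcodes, 65 of 1083 colonic ones had it at a median depth of 29485 UMIs, and 23 of 864 rectal ones at 31122.5. Immune barcodes, some of whose cell types are known to express it, gave 7.99% in colon at 3456 UMIs and 5.81% in rectum at 4791. Sfrp1 stood at 1198 CPM in colonic and 739 CPM in rectal lamina propria fibroblasts, against 448 and 194 in the PDGFRA-high class of the same segments and 871 and 811 in the trophocyte and adventitial class. Ccl11 was likewise above the PDGFRA-high class, at 1012 CPM in colonic and 719 in rectal fibroblasts, against 325 and 282. It is not compared with the trophocyte and adventitial class here. Rectal fibroblasts had 626 CPM of Ccl11 in cells with an Adamdec1 UMI and 1557 in those without, and colonic ones 1091 and 745. Adamdec1 did not separate the lamina propria fibroblasts from the PDGFRA-high class, which reached 11354 CPM in colon and 3097 in rectum, while the trophocyte and adventitial class had 2418 and 811. The classes were cut by limits on other transcripts of the same cells, so these contrasts are descriptions and were not tested.

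Some defining markers of vessels, glia and mesothelium were at or near 0. Of the endothelial list Cdh5 was at 0 in colon and rectum and Pecam1 had 1 UMI in each, and the glial gene Sox10 and the mesothelial genes Msln and Upk3b were at 0. The endothelial list summed to 12.2 CPM in colon and 26.3 in rectum, with 3 and 6 of its 10 genes detected. The glial list summed to 258 CPM in colon and 288 in rectum, with 3 of 8 detected in each and a UMI in 72.9% and 85.4% of cells; most of it was Gpm6b (171 and 170 CPM) and Cryab (83.3 and 116). Smooth muscle genes summed to 307 CPM in colon and 313 in rectum, with 7 and 9 of 10 detected. Epithelial genes summed to 225 CPM in colon and 104 in rectum, with 10 and 8 of 11 detected, and immune genes to 207 and 76.1, with 9 and 10 of 14 detected. Of the colonic immune sum 118 CPM was Cd52, of which the barcode with 53642 UMIs held 94.8%. Their part in the results was not tested. Car1, a colonic epithelial carbonic anhydrase, stood at 376 CPM in colonic and 4.15 in rectal fibroblasts. In immune barcodes of the same libraries it had 3790 and 10.4 CPM. The immune barcodes had no limit on Epcam and can include epithelial cells, and whether this Car1 was free RNA was not tested. Xist had 0 UMIs in fibroblasts of all 5 segments, and the Y-linked Ddx3y had 89.4 CPM in colon and 74.7 in rectum.

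At the edges of the rule, colonic cells with exactly 3 UMIs of Sox6, F3, Bmp5 and Bmp7 numbered 7 and rectal ones 19. Just outside, at 4 UMIs, were 4 colonic and 7 rectal cells. Adamdec1 was 13317 CPM in colon and 3366 in rectum just inside, and 10799 in colon and 1540 in rectum just outside. For Ackr4, Pi16 and Grem1, 8 colonic and 16 rectal cells had exactly 1 UMI, with Adamdec1 at 1464 CPM in colon and 2027 in rectum. The cells just outside, 4 colonic and 11 rectal, had 5633 CPM in colon and 1810 in rectum.

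Genes abundant in both segments, without ribosomal, mitochondrial and immunoglobulin genes, were ranked by the lower of their colonic and rectal CPM. Behind the nuclear RNA Malat1 stood Gsn, an actin-severing protein, with 10463 CPM in colon and 15186 in rectum, and the collagen-binding proteoglycan Dcn with 8940 and 10106. Igfbp7, which binds growth factors, Col3a1 and Sparc, a collagen-binding matrix protein, followed at 3898, 3770 and 3441 CPM in colon and 4902, 6221 and 4372 in rectum. This ranking favours genes that are alike in both segments, so Adamdec1, at 10644 CPM in colon and 2459 in rectum, is not among the first 15. Chemerin (Rarres2), an attractant for myeloid cells, had 2555 CPM in colon and 2951 in rectum, and the class I histocompatibility gene H2-D1 had 2622 and 2627.

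Genes were compared between colon and rectum by size: at least 2-fold in CPM, separate 95% Poisson intervals and at least 50 UMIs summed over colon and rectum. Of 3711 genes with enough UMIs, 55 (1.48%) were higher in colon and 121 (3.26%) were higher in rectum, and the median log2 difference was -0.11. Of these, 35 and 87 stood at least 3 times above the level in immune and epithelial barcodes of the same library. A single cell held over 50% of the UMIs of 6 of the 55 and 5 of the 121. The scatter of both segments shows Adamdec1, Igkc, Igha and Jchain above the diagonal and Ogn and the immunoglobulin gene Iglc2, at 97.5 CPM in colon and 6158 in rectum, below it.

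**Figure D1:**
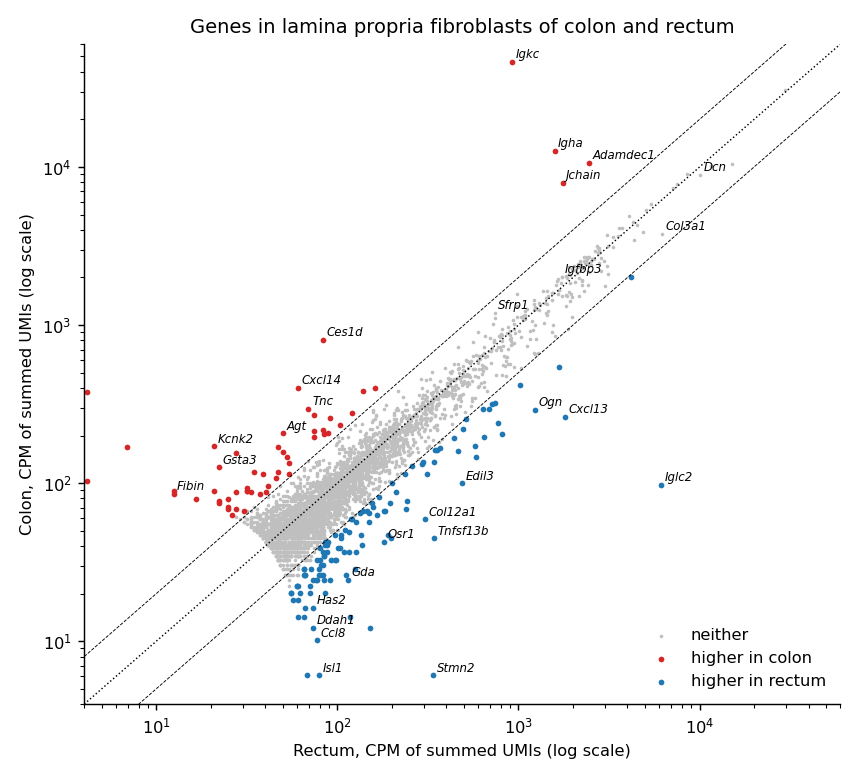
CPM of summed UMIs in lamina propria fibroblasts of colon (vertical) against rectum (horizontal), both on log scales, 1 point per gene with at least 50 UMIs. Red points are the 55 genes higher in colon and blue points the 121 higher in rectum; the dotted line marks equal levels, the dashed lines 2-fold, and counts of 0 are drawn at a floor of 3 counts.

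Adamdec1 (ENSMUSG00000022057, chromosome 14, 68563387 to 68582072 in GRCm38.p6) was the marker that passed the size comparison stated above. It reached 5221 CPM in duodenum, 7993 in jejunum, 7475 in ileum, then 10644 (10358 to 10936) in colon and finally 2459 (2346 to 2576) in rectum. Duodenal cells without posterior Hox UMIs had 8860 CPM and those with them 1175. Rectum was thus the lowest segment, and colon exceeded it 4.33-fold (4.10 to 4.57). A gap in the same direction appeared in the other classes, at 3.67-fold in the PDGFRA-high class and 2.98-fold in the trophocyte and adventitial class. No single cell carried it, since the top colonic cell held 5.08% of the UMIs and the log2 difference without it was 2.07.

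Cell by cell the segments differed in shape. Colonic cells had a median of 120 Adamdec1 UMIs per 10000 of the cell, from 0 to 311, and rectal cells a median of 19.0, from 0 to 105. In colon 51 of 70 cells stood at 50 or more and 18 had no UMI, so that only 1 lay between. In rectum 11 of 89 stood at 50 or more and 11 had none, and most lay between. The colonic cells without Adamdec1 had a median depth of 6483 UMIs, against 6587.5 in those with it.

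**Figure D2:**
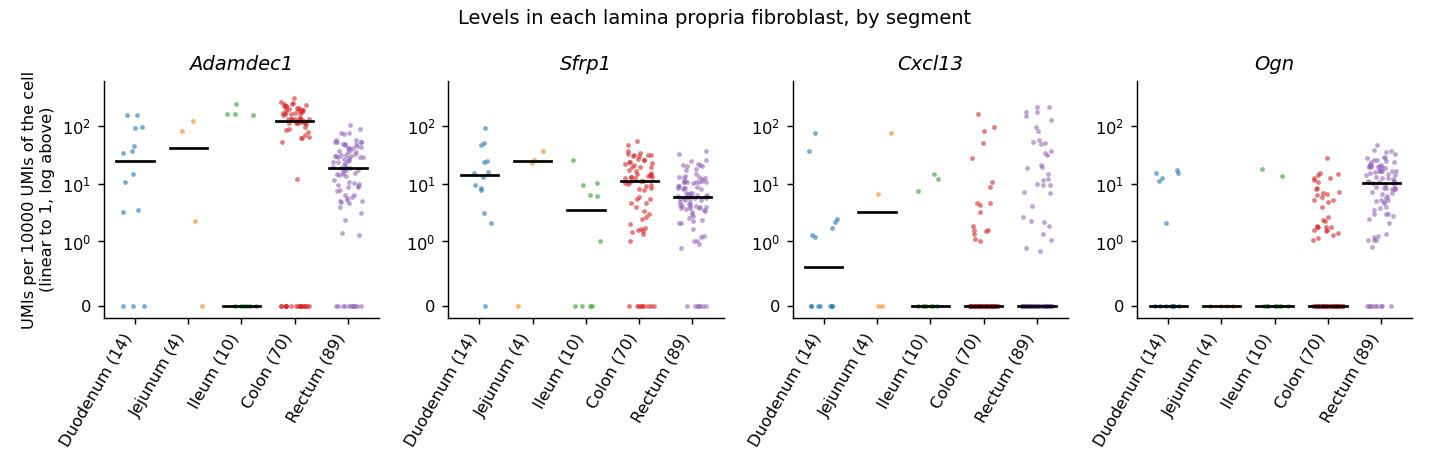
UMIs per 10000 UMIs of the cell for 4 genes in each lamina propria fibroblast, by segment, with the number of cells in brackets; points are cells, spread sideways for legibility, and black bars are medians. The vertical axis is linear up to 1 and logarithmic above. Colonic Adamdec1 falls into 51 cells at 50 or more and 18 cells at 0, whereas rectal cells spread around 19.0.

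The genes closest to Adamdec1 across cells, after thinning each cell to 2000 UMIs, were Tmem176b and Tmem176a, which encode membrane proteins. Their Pearson r across 63 colonic cells was 0.89 each, and across 84 rectal cells 0.57 for Tmem176b and 0.61 for Tmem176a. Igfbp4 (0.71 in colon, 0.56 in rectum) and Igfbp3 (0.71 and 0.23) followed. On the opposite side stood Dpt at -0.62 in colon and -0.22 in rectum, Lum at -0.61 and -0.40, Igfbp6 at -0.58 and -0.29, and Dcn at -0.49 and -0.54. These r values describe cells of 1 library that share library and depth, and carry no test.

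In colon, cells without an Adamdec1 UMI differed in much else. Ces1d, a carboxylesterase, stood at 482 CPM in the 52 cells with Adamdec1 and 1898 in the 18 without, or 1063 without the 1 cell that held 101 of their 214 UMIs. Gsta3, a glutathione transferase, had 7.90 CPM with and 523 without, and Fibin, a secreted protein, 13.2 and 328, or 179 without its top cell. C3, from the list of trophocyte and adventitial genes, had 58.0 CPM with and 1321 without. Rspo3 of that list had 21.1 and 35.5, from 8 and 4 UMIs. Igfbp6 had 63.2 and 1153 CPM, and Gas1 0 and 559. The reverse held for Cxcl14, at 493 CPM with and 88.7 without, for Igfbp3 at 2553 and 231, and for Agt (angiotensinogen) and Ptgs1, which had 269 and 219 CPM with and 0 UMIs without. In rectum 78 cells had Adamdec1 and 11 did not. There C3 had 298 CPM with and 2825 without, Igfbp6 255 and 1034, Gas1 7.69 and 1488, and Igfbp3 1886 and 331. Ces1d and Cxcl14 lay the other way than in colon, at 90.7 and 53.8 CPM with and 13.8 and 124 without. The colonic and rectal averages of these genes given below therefore mix both sets of cells. Whether the 18 colonic and 11 rectal cells without Adamdec1 are lamina propria fibroblasts was not tested.

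Immune signals lay in both directions. The chemokine list held 8 genes with enough UMIs, of which Cxcl14 and Cxcl16 were higher in colon and Cxcl13, Ccl8 and Cxcl1 higher in rectum, with a list median of 0.18 on the log2 scale. Beside the counts of this and the following lists, 1.48% of all genes compared were higher in colon and 3.26% in rectum. Cxcl13 (ENSMUSG00000023078, chromosome 5, 95956939 to 95961068), the B-cell attractant of lymphoid follicles, stood at 968 CPM in duodenum, 3818 in jejunum, 425 in ileum, then 262 (219 to 311) in colon and finally 1808 (1712 to 1909) in rectum. Duodenal cells without posterior Hox UMIs had 411 CPM and those with them 1588. Rectum was 6.90-fold above colon (5.76 to 8.34), a log2 difference of colon over rectum of -2.79. It was carried by 18 of 70 colonic and 35 of 89 rectal cells, against 0.603% and 0.430% of immune barcodes in the same libraries, and 1 cell held 17.6% of the rectal UMIs. Thinned to 2000 UMIs, it was found in 15.9% of 63 colonic and 31.0% of 84 rectal cells. The trophocyte and adventitial class showed a wider gap, with 164 CPM in colon and 2249 in rectum, and the PDGFRA-high class 120 and 138.

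The follicle genes Ccl19 and Ccl21a had 0 UMIs each in colonic fibroblasts and 3 and 2 in rectal ones, and Cr2 had 1 and 0. The lymphoid stroma list of 8 genes in the files summed to 264 CPM in colon and 1815 in rectum, with 2 and 3 detected, and nearly all of it was Cxcl13. Tnfsf13b, the B-cell survival factor BAFF, was also higher in rectum. It stood at 257 CPM in duodenum, 204 in jejunum, 60.7 in ileum, then 44.7 (28.01 to 67.7) in colon and finally 340 (299 to 386) in rectum, a rectal excess of 7.62-fold (4.92 to 12.4). In duodenum it was 196 CPM without posterior Hox UMIs and 326 with them. It occurred in 19 of 70 colonic and 66 of 89 rectal cells, and after thinning in 7.94% and 45.2%, against 3.17% of colonic and 4.73% of rectal immune barcodes unthinned. In rectum 28 cells carried both genes, 7 Cxcl13 alone and 38 Tnfsf13b alone. In colon 5 carried both, 13 Cxcl13 alone and 14 Tnfsf13b alone.

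Ccl8, a monocyte attractant, had 10.2 CPM in colon and 77.5 in rectum, in 4 and 18 cells. Cxcl1, which recruits neutrophils, had 12.2 CPM in colon and 151 in rectum, but without the 1 rectal cell that held most of it the rectal level was 25.3 CPM and too few UMIs were left for the comparison. Cxcl14 (ENSMUSG00000021508, chromosome 13, 56288643 to 56296811), an epithelial and stromal chemokine, was the reverse of Cxcl13. It had 299 CPM in duodenum, 50.9 in jejunum, 197 in ileum, then 400 (346 to 460) in colon and finally 60.9 (44.2 to 81.7) in rectum, a colonic excess of 6.57-fold (4.72 to 9.34). Duodenal Cxcl14 was 567 CPM without posterior Hox UMIs and 0 with them. In the PDGFRA-high class it was 359 CPM in colon and 537 in rectum. Cxcl16, which binds the receptor CXCR6 of T cells, had 260 CPM in colon and 91.3 in rectum. Cxcl12, the ligand of CXCR4, was 1479 CPM in colon and 1417 in rectum and did not pass.

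Of 5 cytokines with enough UMIs, the alarmin Il33 was higher in colon (87.3 CPM against 27.7 in rectum, though -0.21 on the log2 scale under stricter limits on other stromal classes) and Tnfsf13b higher in rectum. Csf1, the macrophage growth factor, had 144 CPM in colon and 224 in rectum and Kitl, the ligand of KIT, 142 and 138, and neither passed. Of 12 cytokine receptors, none passed in either direction. Among 8 complement genes Cd55, which protects cells from complement, had 197 CPM in colon and 643 in rectum, while C3 had 347 and 552 and Serping1 1534 and 1747 without passing.

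Genes of the rectum outside the immune group were led by Stmn2 (ENSMUSG00000027500, chromosome 3, 8509527 to 8561604), a microtubule-destabilising protein best known from neurons. It had 0 UMIs in colonic, jejunal and ileal fibroblasts, 216 CPM in duodenum and 338 (297 to 383) in rectum, in 34 of 89 cells. Against the floor of 3 counts in colon, which is 6.09 CPM, rectum was 55.4-fold higher, and the lower end of the ratio's exact interval was 44.7-fold. In immune barcodes it had 2 UMI-bearing cells of 663 in colon and 0 of 930 in rectum. Duodenal Stmn2 lay wholly in the 6 cells with posterior Hox UMIs, at 457 CPM, with 0 UMIs in the other 8. Colonic cells of other classes did have it, at 19.9 CPM in the PDGFRA-high class and 29.5 in the trophocyte and adventitial class, against 51.5 and 59.3 in rectum.

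Isl1, a homeobox transcription factor, had 0 UMIs in colonic fibroblasts and 78.9 CPM (59.7 to 102) in rectal ones, in 29 of 89 rectal cells. Against the same floor this was 12.9-fold higher, with 10.2-fold at the lower end of the exact interval. In the PDGFRA-high class it was 0 in colon and 57.1 CPM in rectum. Osr1, a zinc-finger factor of mesenchyme, had 42.7 CPM in colon and 181 in rectum. Of 16 mesenchymal transcription factors with enough UMIs, these were the only members to pass. Tcf21, a factor of fibroblast lineages, had 1538 CPM in colon and 2165 in rectum, Foxf1 91.4 and 167, and Nkx2-3 221 and 181. Further rectal genes were Ddah1, Gda, Tubb2b and Cav1, at 12.2, 24.4, 28.4 and 14.2 CPM in colon and 73.3, 115, 125 and 60.9 in rectum. Tnfrsf11b, which encodes the decoy receptor osteoprotegerin, had 14.2 CPM in colon and 65.0 in rectum.

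Of 57 extracellular matrix genes, enzymes aside, 2 were higher in colon and 7 in rectum (15.8%), beside 4.74% of all genes compared in either direction. Col1a1, Col1a2, Col3a1 and Dcn are among the 57 and helped choose the cells. Of 9 fibrillar collagen genes, 0 were higher in colon and 2 in rectum, and the list median was -0.31 against -0.11 for all genes. Col12a1, which decorates collagen fibrils, had 58.9 CPM (39.4 to 84.6) in colon and 303 (264 to 346) in rectum, 5.14-fold higher, in 18 colonic and 72 rectal cells. Col5a2, which sets fibril width, had 319 and 717. Col1a1 had 1582 CPM in colon and 1956 in rectum and Col1a2 1887 and 2252, both short of 2-fold, as was Col3a1 at 3770 and 6221. Col1a1, Col1a2 and Col3a1 all helped choose the cells.

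Ogn, a small leucine-rich proteoglycan also called osteoglycin, was the member of 8 proteoglycans that passed. It had 628 CPM in duodenum, 0 in jejunum, 470 in ileum, then 290 (245 to 342) in colon and finally 1231 (1152 to 1315) in rectum, 4.24-fold higher in rectum. Duodenal cells had 391 CPM without posterior Hox UMIs and 892 with them. It was found in 34 of 70 colonic and 80 of 89 rectal cells, with a median of 0 UMIs per 10000 in colon and 10.5 in rectum. The PDGFRA-high class had more of it, 2035 CPM in colon and 3313 in rectum. Bgn (2210 and 2841 CPM) and Lum (918 and 1155 CPM) did not pass. Dcn, also among the 8, did not pass either, and it helped choose the cells.

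The sequence before the transcription start is shown for Cxcl13 and Ogn, the chemokine and the proteoglycan that were higher in rectum and are described above. Each line gives the 250 bases upstream of the start from RefSeq (GRCm38.p6), 5′ to 3′ on the + strand, for chr5:95956689-95956938 and chr13:49607765-49608014, and capitals mark matches to the TATA box letters.
Cxcl13: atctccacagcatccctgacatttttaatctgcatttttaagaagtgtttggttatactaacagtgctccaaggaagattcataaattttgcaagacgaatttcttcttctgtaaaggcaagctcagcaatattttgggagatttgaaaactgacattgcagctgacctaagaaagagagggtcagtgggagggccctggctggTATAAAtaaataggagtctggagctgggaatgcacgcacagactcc
Ogn: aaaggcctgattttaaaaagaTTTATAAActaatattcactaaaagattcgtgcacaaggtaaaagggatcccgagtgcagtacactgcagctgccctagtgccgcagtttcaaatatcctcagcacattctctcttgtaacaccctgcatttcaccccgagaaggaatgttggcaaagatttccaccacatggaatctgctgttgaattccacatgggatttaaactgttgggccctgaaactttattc
Both strands were searched for TATAAA, the TATA box, for TGTTTAC, a forkhead motif, and for the AP-1 and NF-kB motifs. Cxcl13 held 1 TATAAA, beginning 46 bases before the start. Ogn held 2 overlapping matches, 1 on each strand, beginning 229 bases before the start. TATAAA occurs in 12.4% of 32851 windows of this length, AP-1 in 6.75%, NF-kB in 1.41% and forkhead in 3.17%. The last 3 were not found in these 2 windows.

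Of 24 elastic fibre and glycoprotein genes, 1 was higher in colon and 3 in rectum. Eln, elastin itself, had 240 CPM in colon and 771 in rectum, Mfap5, a microfibril protein, 163 and 353, and Fn1, fibronectin, 420 and 1018. Fbn1, fibrillin-1, at 183 and 365 CPM, missed by size. The colonic exception was Tnc, tenascin-C, at 297 CPM (250 to 349) in colon and 69.2 (51.4 to 91.2) in rectum. Of 9 basement membrane genes 0 passed, with Col4a1 at 437 CPM in colon and 526 in rectum. Col6a3 and Col8a1 passed among 7 beaded and network collagens, Col6a3 with 402 CPM in colon and 160 in rectum and Col8a1 at 26.4 and 78.9. In cells with Adamdec1, Col6a3 had 221 CPM in colon and 125 in rectum, against 1011 and 482 in cells without. Edil3, which binds integrins, and Hapln1, which links hyaluronan to proteoglycans, lay outside these lists and were higher in rectum, at 99.5 and 14.2 CPM in colon and 490 and 118 in rectum.

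Matrix enzymes split. Of 19, Adamdec1 and Adamts1 were higher in colon, and those higher in rectum included Loxl1, Timp3, Ctsk and Has2. Loxl1, which crosslinks elastin, had 221 CPM in colon and 495 in rectum, the metalloprotease inhibitor Timp3 323 and 740, and the collagen-degrading cathepsin Ctsk 87.3 and 210. Has2, which makes hyaluronan, had 16.3 and 73.3. Mmp2 had 455 CPM in colon and 421 in rectum and did not pass.

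**Figure D3:**
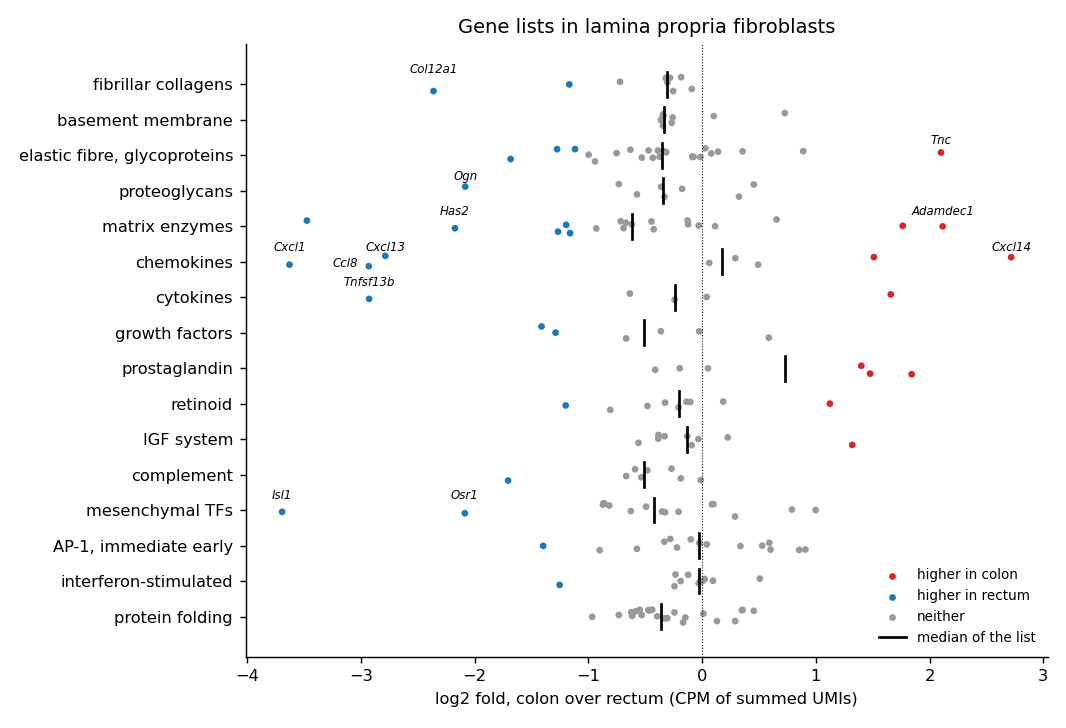
Log2 fold of colon over rectum (horizontal) for genes with at least 50 UMIs, grouped in 16 lists (vertical); each point is a gene, red higher in colon, blue higher in rectum, grey neither, and black bars are list medians. Prostaglandin genes lie to the right with a median of 0.72, while matrix lists lie slightly to the left with a few genes far out; Cxcl1 rests on 1 rectal cell.

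Of 6 prostaglandin genes 3 were higher in colon and 0 in rectum, beside 1.48% and 3.26% of all genes compared. The list's median log2 difference was 0.72, against -0.11 for all genes. Ptgs1, the constitutive cyclooxygenase, had 169 CPM in colon and 47.0 in rectum, Ptgis, prostacyclin synthase, 146 and 52.6, and Hpgd, which breaks prostaglandins down, 197 and 74.7. Epithelial barcodes also held Hpgd, at 123 CPM in colon and 124 in rectum. Ptges, a prostaglandin E synthase, had 136 and 181 CPM and Ptger4, a receptor, 38.6 and 44.3, without passing. In the PDGFRA-high class Ptgs1 lay the other way, at 209 CPM in colon and 366 in rectum.

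Other genes of the colon were metabolic or membrane proteins. Ces1d (ENSMUSG00000056973) had 144 CPM in duodenum, 0 in jejunum, 394 in ileum, then 806 (729 to 890) in colon and finally 83.0 (63.3 to 107) in rectum, 9.71-fold higher in colon (7.39 to 12.97). It was found in 40 of 70 colonic cells, and the top cell held 25.4% of its UMIs. The potassium channels Kcnk2 and Kcnn3 had 171 and 89.4 CPM in colon and 20.8 each in rectum. In cells with Adamdec1, Kcnn3 had 47.4 CPM in colon and 10.8 in rectum, against 231 and 110 in cells without. With cells lacking Adamdec1 left out, Kcnn3 had 18 UMIs in colon and 7 in rectum, under the minimum for the comparison. Kcnk2 occurred in 35 colonic and 5 rectal cells, after thinning in 34.9% and 2.38%, and in 0 immune barcodes of both libraries. Abca8a, a lipid transporter, had 270 CPM in colon and 74.7 in rectum, Agt 207 and 49.8, Mab21l2 154 and 27.7, Fxyd6, a sodium pump regulator, 118 and 34.6, and the adhesion receptor Adgrl3 77.2 and 22.1.

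Fibin (85.3 CPM in colon, 12.5 in rectum) and Rgs5 (79.2 and 16.6), a pericyte gene, each came from 9 colonic cells. Without its top cell, which held 42.9% of the colonic Fibin UMIs and 23.1% of those of Rgs5, either gene fell below the minimum of UMIs for the comparison. The pericyte list of 8 summed to 126 CPM in colon and 38.7 in rectum, with 6 and 5 detected. Of its other genes Notch3 had 1 UMI in colon and 0 in rectum and Abcc9 had 4 and 1. Gsta3 had 126 and 22.1 CPM and was found in 19 colonic and 9 rectal cells, and with cells lacking Adamdec1 left out its log2 difference was -1.34.

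Of 5 hedgehog genes and 9 retinoid genes, each list gave 1 in either direction. Ptch1, the hedgehog receptor and target, had 213 CPM in colon and 74.7 in rectum, and Smo, the transducer, 28.4 and 78.9. The Smo difference was 0.13 on the log2 scale after thinning. In the PDGFRA-high class Ptch1 was 226 CPM in colon and 354 in rectum. Among the retinoid genes Aldh1a1, a retinaldehyde dehydrogenase, had 87.3 and 40.1 CPM, with 174 CPM in colonic epithelial barcodes and no call without its top colonic cell (78.8 CPM), and Rbp4, a retinol carrier, 65.0 and 149. Aldh1a3, a further dehydrogenase, had 106 CPM in colon and 116 in rectum.

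Of 6 BMP and TGF-beta genes 1 passed, Bmp6 at 36.6 CPM (21.7 to 57.8) in colon and 127 (103 to 156) in rectum. Bmp5 is among the 6, although the rule that chose the cells limits its UMIs. Bmp4, a further BMP ligand, had 664 CPM in colon and 1222 in rectum, short of 2-fold. The 12 WNT ligands and R-spondins summed to 362 CPM in colon and 439 in rectum. Wnt4 had 246 CPM in colon and 256 in rectum and Wnt5b 32.5 and 58.1, and neither of these 2 with enough UMIs passed. Rspo3, which sustains stem cells, had 12 UMIs in colon and 23 in rectum, Wnt2b 3 and 15, and Wnt2 0 and 16, all under the minimum. Among growth factors Hgf (34.5 CPM in colon, 84.4 in rectum) and the lymphatic factor Vegfc (22.3 and 59.5) were higher in rectum, 2 of 6. In the IGF system Pappa, a protease of IGF-binding proteins, was higher in colon (69.1 and 27.7 CPM), 1 of 9, but did not pass without its top colonic cell (62.0 CPM), while Igf1 had 122 and 159.

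Of 92 genes in the stress and response lists 4 passed (4.35%), near the 4.74% of all genes compared. Jun, the AP-1 member c-Jun, had 697 CPM in colon and 747 in rectum and Fos 451 and 439, of which 1 rectal cell held 63.4%. Of 15 AP-1 and immediate early genes, Atf3 passed, at 63.0 CPM in colon and 166 in rectum, but without the 1 rectal cell the rectal level was 42.2 CPM and the log2 difference 0.58. Of 13 heat-shock genes Hspb1 passed at 75.2 and 195 CPM, and without that cell rectum had 85.8. Of 10 NF-kB targets Tnfaip6 passed (136 and 297 CPM), and without its top cell, which held 34.9% of the rectal UMIs, the log2 difference was -0.53. Of 11 interferon-stimulated genes Gbp2 passed (32.5 and 77.5 CPM), while 0 of 8 antigen presentation, 0 of 13 redox and 0 of 22 protein folding genes did. The cell cycle genes Mki67 and Top2a had 1 UMI each in colon and 0 in rectum.

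Gnai1, which encodes an inhibitory G protein subunit and which the study uses to define stromal cells, had 16.3 CPM (7.02 to 32.0) in colonic and 66.4 (49.0 to 88.0) in rectal lamina propria fibroblasts, 4.09-fold higher in rectum (1.92 to 10.00). It was found in 7 of 70 colonic and 35 of 89 rectal cells. After thinning, 1.59% of 63 colonic and 7.14% of 84 rectal cells had a UMI, and these levels are near that of 1 UMI. The PDGFRA-high class had 319 CPM in colon and 309 in rectum. Gnai2, at 465 and 408 CPM, and Gnas, at 792 and 906, did not pass.

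Several Hox genes differed between colon and rectum in the same direction in all 3 fibroblast classes. Hoxd8, Hoxd9 and Hoxd10 had 24, 23 and 16 UMIs in colonic lamina propria fibroblasts and 1, 0 and 1 in rectal ones. In CPM these were 48.8 (31.2 to 72.5), 46.7 (29.6 to 70.1) and 32.5 (18.6 to 52.8) in colon and 1.38 (0.0350 to 7.71), 0 (floor 4.15) and 1.38 (0.0350 to 7.71) in rectum, and the colonic intervals lay above these levels. Hoxd11 had 26 UMIs in colon and 7 in rectum. Hoxa13 lay the other way, with 5 UMIs in colon (10.2 CPM, 3.30 to 23.7) and 28 in rectum (38.7 CPM, 25.7 to 56.0). These genes fell under the minimum of 50 UMIs and are outside the counts above.

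In the PDGFRA-high class Hoxd8, Hoxd9 and Hoxd10 had 20, 18 and 10 UMIs in colon and 1, 0 and 1 in rectum, and Hoxa13 had 1 and 57. In the trophocyte and adventitial class the first 3 had 14, 20 and 7 UMIs in colon and 1, 1 and 0 in rectum, and Hoxa13 had 2 and 18. Hoxa10 and Hoxa11 did not follow the pattern, with 41 and 18 UMIs in colonic and 51 and 25 in rectal lamina propria fibroblasts. In rectal epithelial barcodes Hoxa13 was found in 256 of 864, and in colonic ones in 2 of 1083. Among 930 rectal immune barcodes it was found in 10.

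**Figure D4:**
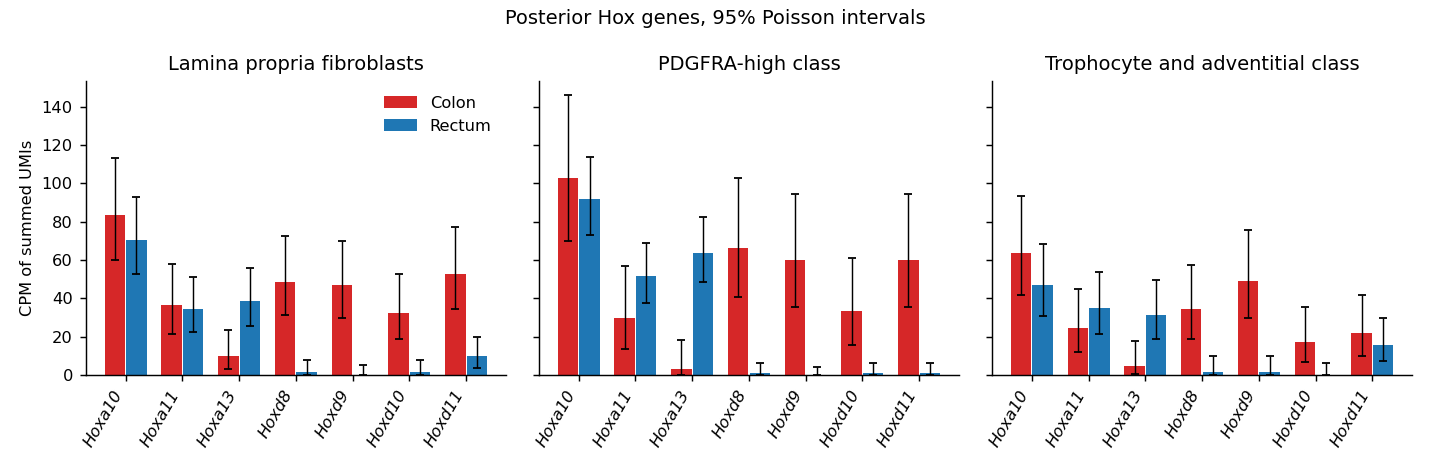
CPM of summed UMIs of 7 Hox genes in 3 fibroblast classes, red for colon and blue for rectum. Bars are levels and whiskers exact 95% Poisson intervals of the counts. Hoxd8, Hoxd9 and Hoxd10 reach 48.8, 46.7 and 32.5 CPM in colonic lamina propria fibroblasts and at most 1.38 in rectal ones, and Hoxa13 is higher in rectum in every class.

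The other fibroblast classes shared some of the segment differences. Of the 15 named genes higher in colon, 6 were at least 2-fold higher in colon in both other classes (Ces1d, Kcnk2, Mab21l2, Adamdec1, Kcnn3 and Fxyd6). Another 5 lay toward rectum in the PDGFRA-high class (Fibin, Cxcl14, Gsta3, Agt and Ptgs1). Of the 15 named genes higher in rectum, Stmn2, Isl1 and Ddah1 were at least 2-fold higher in rectum in both other classes, and 5 lay toward colon in the PDGFRA-high class (Hapln1, Gda, Tnfrsf11b, Has2 and Tubb2b). The differences between classes were not tested.

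Lamina propria fibroblasts were also set against the other fibroblasts of the same library. The 10 genes with the widest fold in both segments included Edem2 and also Mzb1, Cd74 and Sdc1, genes of plasma and antigen-presenting cells. Mzb1 came from 4 colonic and 5 rectal cells, and 1 colonic cell held 93.8% of its colonic UMIs. The immunoglobulin-rich lamina propria fibroblasts were also left out, while the other fibroblast classes were not filtered in this way. The list was then led by Serpina3g, a protease inhibitor induced by interferon, at a lowest fold of 2.97. Next were Hapln1 at 2.28, Chst15 at 1.89, the retinaldehyde dehydrogenase Aldh1a3 at 1.88, Amacr at 1.86 and Igfbp3 at 1.74. Because the rule itself cut the classes, these differences are descriptions and were not tested.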

How the data were processed

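The deposited matrices of the 5 libraries hold raw UMI counts of 32285 genes in every barcode. Cell Ranger 4.0.0, Seurat and the build mm10 are named in the submitters' processing notes, whereas the file headers name cellranger 7.2.0. Per the labels' protocols, cells negative for propidium iodide (5 µg/ml) were sorted, captured on a droplet platform and sequenced as 150-bp paired reads. The read counting, the filter behind the deposited barcodes and any removal of ambient RNA are not given in the sources used here.

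Fibroblasts were chosen by the rule given at the opening of the results, with no doublets removed. Scrublet in scanpy 1.11.5 was run as an alternative; its automatic threshold marked 2, 11, 4, 1 and 9 barcodes from duodenum to rectum, too few to have worked. UMIs were summed per segment and given as CPM with exact Poisson intervals, and a count of 0 was set to a floor of 3 counts for a fold. Other stromal classes were cut by the same transcripts: PDGFRA-high (at least 4 UMIs of Sox6, F3, Bmp5 and Bmp7; 38 colonic and 100 rectal cells), trophocyte and adventitial (of the rest, at least 2 of Ackr4, Pi16 and Grem1; 53 and 66) and muscle (at least 5 of Myh11, Des and Actg2; 13 and 32). Background levels were read from immune barcodes (Ptprc, no collagen UMI, no limit on Epcam) and epithelial ones (at least 2 Epcam UMIs, no collagen UMI). The size rule is stated with its results, and the scripts were tested on simulated data.

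Genes named in the text are the 15 with the widest fold in each direction past the rule, found in at least 10% of cells of the higher segment and at least 3 times above immune and epithelial barcodes, without mitochondrial, ribosomal, immunoglobulin and T cell receptor genes and gene models. Added are the 15 most abundant, the 10 most above both other fibroblast classes, and members of 49 lists (36 of fibroblast function, 13 of other cells). A list is described by its counts and its median, beside those of all genes. Correlates of Adamdec1 were sought among 365 genes with a mean of at least 0.5 UMIs after thinning. The fibroblast rule, the gene lists and the tests were chosen with earlier results of these data known. No value column was left unused (0). Gene positions and upstream sequence come from RefSeq (GRCm38.p6), and mm10 is the same build. Positions were matched on Ensembl gene identifiers, or on unique symbols where none matched, and upstream sequence on symbols. Alternatives were at most 10% or no mitochondrial limit, at least 1000 genes, high Scrublet scores removed, at least 20 collagen UMIs, stricter limits on other stromal classes, means of per-cell fractions, TMM factors (edgeR 4.0.16, R 4.3.3), thinning to 2000 UMIs, other minima and folds, and background genes left out. Python 3.11.15 was used with numpy 2.4.6, scipy 1.17.1, pandas 2.3.3 and matplotlib 3.10.9. The results of 2 listed genes are not reported here.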

Additional observations from a re-analysis of the deposited data

How the results depend on the processing

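Across 377 genes and 11 settings, 3683 of 4147 log2 differences stayed within the exact 95% interval of the reported value, 452 moved beyond it and 12, of genes past the size rule, changed sign. The class held 46 colonic, 43 rectal and 99 cells in all under stricter limits on other stromal classes. Against 55 genes higher in colon, there were 35 under those limits, 16 after thinning to 2000 UMIs, 9 at a minimum of 200 UMIs, 139 with no minimum, 19 at 4-fold and 35 with background genes left out. Against 121 higher in rectum, there were 31 after thinning, 34 at 200 UMIs and 25 at 4-fold. TMM factors gave 65 genes higher in colon and 99 in rectum. Without immunoglobulin-rich cells there were 59 and 98, which kept 45 of the 55 and 89 of the 121. The median log2 difference was then -0.029, against -0.11 with them. Without cells lacking Adamdec1, 37 of the 55 and 89 of the 121 were kept. Listed genes called after thinning were 6 higher in colon and 14 in rectum. Thinning and the higher minimum leave fewer UMIs to compare. Higher-in-colon genes made up 31.2% of calls, against 39.6% with TMM factors, 44.1% with no minimum and 43.2% at 4-fold. Reversed log2 differences were Gsta3 at -1.34 and Atf3 at 0.19 without cells lacking Adamdec1, Smo at 0.13 after thinning and Il33 at -0.21 under stricter limits. Immunoglobulin genes reversed too: Jchain was -0.44 and Igha -0.15 as means of per-cell fractions, -0.70 and -0.29 after thinning, and -1.40 and -2.08 without immunoglobulin-rich cells, where Igkc was -1.93, and Ighv13-2 was -1.17 after thinning. With the cell holding most UMIs of the gene left out, Atf3 was 0.58, Igha -0.87, Jchain -1.14 and Ly6d -0.60, and 22 of 34 named or listed genes higher in colon and 33 of 40 higher in rectum still passed. Those that did not included Adamts1, Aldh1a1, Fibin, Pappa, Plin2, Rgs5 and Cd52 in colon and Atf3, Cav1, Cxcl1, Hspb1, Tnfaip6 and Tnfrsf11b in rectum. Stricter limits left 1883 genes with enough UMIs, against 3711. They ended the calls of Fibin, Rgs5, Kcnn3 and Adgrl3 in colon and of Isl1, Ccl8, Ddah1, Tnfrsf11b, Has2 and Cav1 in rectum. Which of these calls ended by too few UMIs and which by a smaller difference is not given here. Leaving out immunoglobulin-rich cells, cells lacking Adamdec1 and the top cell were chosen after seeing the data. No paired analysis was possible because each segment has 1 library.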
